A study of Mus musculus with 24 samples.

Results

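The core clock genes and their best-known outputs were examined in the brain of mice with and without the vitamin D receptor after an injection of morphine. Genes were taken by symbol: Per1, Per2, Per3, Nr1d1, Nr1d2, Arntl, Clock, Dbp, Ciart and Cry1, which are 10 of the 30270 genes in the deposited tables, and each was present in every table and passed the filter on low values in each comparison. The tissue was taken from C57BL/6 mice that were either wild-type (VDR+/+) or Vdr-/- (VDR-/-). They had received an intraperitoneal injection of PBS or of 5 mg/kg morphine sulfate 90 min before, a time the paper states for the accumbens RNA sequencing. It gives no time for the VTA libraries, and its tissue methods for PCR and blots put saline-injected mice at an earlier time. By the numbers in the sample labels, bilateral 1.5 mm punches of the nucleus accumbens (NAc) and of the ventral tegmental area (VTA) came from the same 12 mice. There were 3 mice per genotype and injection, which gave 8 groups of 3 libraries of bulk RNA. The Vdr-/- mice had been raised on a diet with added calcium, phosphate and lactose, so genotype and diet cannot be told apart. The hour of death, the light cycle, the age and sex of the animals and the order of handling were not given in the sources used here, so an effect of morphine and a difference in the hour of death cannot be told apart in any value that follows.

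The circadian clock is a transcriptional loop that runs in nearly every cell. CLOCK and BMAL1 (the product of Arntl) bind E-boxes and switch on the Period and Cryptochrome genes, whose proteins return to the nucleus and silence CLOCK and BMAL1. The same activators drive the nuclear receptors REV-ERB alpha and beta (Nr1d1 and Nr1d2), which repress Arntl through REV-ERB/ROR elements (RREs), and the outputs Dbp and Ciart, so that Dbp, Nr1d1 and Ciart peak at the opposite time of day to Arntl. DBP, a PAR bZIP factor, acts in turn on D-boxes, among others those of Per3. Per1 and Per2 can also be induced rapidly by neuronal activity, by cAMP signalling and by glucocorticoids. In the striatum NPAS2 can stand in for CLOCK as the partner of BMAL1.

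The promoters of Ciart, Per3 and Arntl show these 3 kinds of element and belong to genes whose levels differed with the injection below. Each window is RefSeq sequence of build GRCm38.p6, from 250 bases before to 50 bases after the annotated transcript start, written 5′ to 3′ on the gene's own strand, with matches to a motif in capitals. Ciart lies on the minus strand of chromosome 3 (window chr3:95882179-95882478) and its capitals mark 3 E-boxes (CACGTG) that begin at -116, -58 and -44 from the start. Per3 lies on the minus strand of chromosome 4 (chr4:151044616-151044915) and its capitals mark 2 D-boxes (TTATGTAA) at -205 and -158. Arntl lies on the plus strand of chromosome 7 (chr7:113207261-113207560) and its capitals mark 1 match to the RRE letters searched (TAGGTCA), which begins at +30, downstream of the start. Other forms of the RRE were not searched, so the window may hold more.
Ciart: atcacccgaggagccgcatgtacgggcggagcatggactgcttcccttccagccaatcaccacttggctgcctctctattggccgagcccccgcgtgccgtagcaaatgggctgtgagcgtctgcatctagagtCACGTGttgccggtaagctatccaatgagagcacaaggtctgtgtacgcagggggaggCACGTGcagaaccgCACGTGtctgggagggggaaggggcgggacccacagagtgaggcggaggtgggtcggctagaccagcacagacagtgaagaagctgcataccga
Per3: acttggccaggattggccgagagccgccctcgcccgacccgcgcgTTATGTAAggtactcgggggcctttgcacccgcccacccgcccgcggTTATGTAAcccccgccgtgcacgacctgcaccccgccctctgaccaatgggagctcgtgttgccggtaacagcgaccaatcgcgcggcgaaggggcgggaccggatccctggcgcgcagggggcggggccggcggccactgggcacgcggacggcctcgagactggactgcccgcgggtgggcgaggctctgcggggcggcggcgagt
Arntl: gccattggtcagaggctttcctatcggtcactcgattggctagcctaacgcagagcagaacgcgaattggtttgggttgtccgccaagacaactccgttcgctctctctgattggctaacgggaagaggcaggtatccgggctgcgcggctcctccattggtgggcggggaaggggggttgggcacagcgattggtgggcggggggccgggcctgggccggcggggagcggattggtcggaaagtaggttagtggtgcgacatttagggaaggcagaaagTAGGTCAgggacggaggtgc

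RefSeq windows were matched for 9 of the 10 genes, in 13 windows, and none was matched for Per2. Both strands were searched. An E-box was also found in a window of Per1, at -166, and in the window of Cry1, at -60. The E-box CACGTG occurred in 7.15% of 32851 mouse promoter windows of the same length, a D-box (TTATGTAA or TTACGTAA) in 1.06% and an RRE (TAGGTCA or TGGGTCA) in 6.45%. No window of a clock gene held the cAMP response element TGACGTCA, which 1.79% of all windows held, and its core TGACG, found in 20.8%, lay in windows of Per1 and Cry1. The windows of Dbp, Nr1d1, Nr1d2 and Clock held none of these letters, which says nothing of elements elsewhere in those genes. A match is a run of letters and not a measured site. In the GENCODE M21 annotation of GRCm38 the genes the results turn on span chr7:45705088-45710203 (Dbp, plus strand), chr3:95878503-95882251 (Ciart, minus), chr4:151003652-151044665 (Per3, minus), chr11:98767932-98775333 (Nr1d1, minus) and chr7:113207465-113314126 (Arntl, plus).

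Libraries held 9328726 to 30184426 reads on genes (median 16779763.5). Levels are given in CPM, a gene's reads scaled to the reads on all genes of its library, in the order mice 1, 2 and 3 (wild-type, PBS), mice 1.0, 1.1 and 1.2 (wild-type, morphine), mice 7, 8 and 9 (Vdr-/-, PBS) and mice 2.0, 2.1 and 2.2 (Vdr-/-, morphine), and differences are log2 differences of the deposited normalized counts, after adding 1, with their standard error (SE). A gene was called where the limma test, adjusted by Benjamini-Hochberg over all genes tested, fell under 0.05. Reads on Vdr itself numbered 0 to 17 per library and were not lower in the Vdr-/- libraries, so they give no check of the genotype labels. Every library read as male: Ddx3y, a gene of the Y chromosome, stood at 54.4 to 72.7 CPM in the NAc and 87.1 to 110 CPM in the VTA. Xist stood at 0 to 0.35 CPM in the NAc and 0 to 0.24 CPM in the VTA. The NAc library of wild-type PBS mouse 2 stood apart: its log ratio to the other libraries fell with transcript length (rank correlation -0.46 across genes, against -0.25 to 0.26 in the other 23 libraries), and the values that moved most are also given without it. The same trend moved with the injection: it was 0.05 to 0.19 in the VTA morphine libraries and -0.25 to -0.05 in the VTA PBS libraries, without overlap, and 0.07 to 0.26 in the NAc morphine libraries against -0.08 to 0.11 in the other NAc PBS libraries. In the VTA longer transcripts thus read relatively higher in every morphine library, and in the NAc the ranges overlapped. Exon bases, here and below, are those covered by any annotated transcript of a gene, which can exceed the length of each transcript. Among the 10 genes Ciart (2261 exon bases), Dbp (2993) and Nr1d1 (3077) had few and Arntl (7523), Per3 (9608) and Clock (13727) many. The part of the length trend in the morphine differences was not tested. The library names of the PBS mice carried a prefix that those of the morphine mice lacked, so any difference in library handling and the injection cannot be told apart. In bulk tissue, fewer cells of a type and less RNA per cell cannot be told apart.

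Per kilobase of exon, the 10 genes spanned about an order of magnitude in wild-type PBS mice. In the NAc Nr1d1 was highest, at 47.1 ± 3.34 RPKM (SD, n = 3). Dbp at 29.9 ± 3.34 RPKM and Per1 at 29.7 ± 2.83 RPKM came next and overlapped each other. They were followed by Nr1d2 at 23.5 ± 2.27 RPKM and Per2 at 15.5 ± 3.00 RPKM, whose libraries did not overlap with each other or with those of Dbp and Per1. Per3, Ciart, Clock and Cry1 lay between 7.40 and 8.27 RPKM with overlapping libraries, and Arntl was lowest at 4.52 ± 0.715 RPKM. By CPM, without division by length, mean Arntl (34.0) lay above mean Cry1 (24.7) and Ciart (18.7) there. In the VTA Nr1d1 (30.5 ± 2.52 RPKM) and Arntl (2.56 ± 0.161 RPKM) again stood at the top and the bottom, but Nr1d2 (23.8 ± 0.672 RPKM) lay above Dbp (14.0 ± 0.794 RPKM) and Per1 (12.7 ± 0.551 RPKM). The libraries of Dbp and Per1 overlapped in the VTA by a narrow margin, from 13.2 to 14.8 and from 12.2 to 13.3 RPKM. Clock (8.09 to 8.81 RPKM), Per2 (6.93 to 8.75) and Per3 (6.54 to 7.55) followed with overlapping neighbours, and Ciart (4.90 to 5.28) lay above Cry1 (4.16 to 4.39) without overlap.

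**Figure D1:**
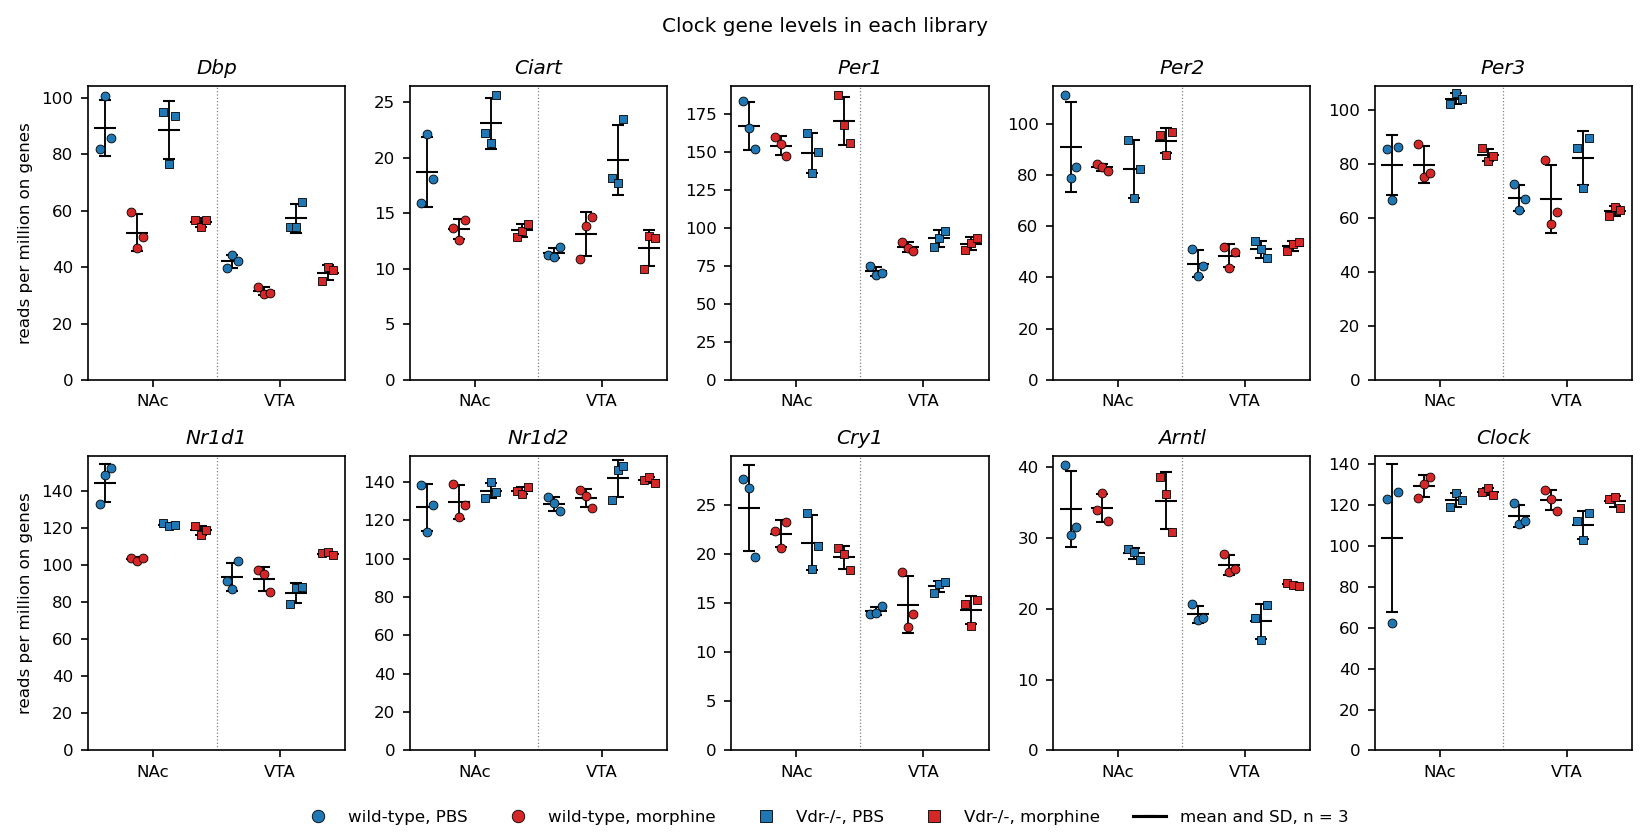
Level of each clock gene in the 24 libraries, in CPM, by region, genotype and injection, with 1 point per library and bars for the group mean and SD. Dbp lies lower in every morphine group than in the PBS group of the same genotype and region, Arntl lies higher with morphine in both VTA pairs, and Clock shows the single low library of wild-type PBS mouse 2 in the NAc.

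Most of the clock genes were higher in the NAc than in the VTA. Within the same mice, 8 of the 10 genes were higher in the NAc and none was lower. A difference between the regions was common: 72.9% of all 16147 genes tested differed, 35.1% being higher and 37.8% lower in the NAc. The median difference of the clock genes was 0.52 (log2), against -0.02 over all genes. Per1 differed most, by 0.97 (SE 0.04, adjusted p = 4.45e-10, limma), a level 1.96-fold as high in the NAc. Per2 followed at 0.88 (SE 0.04) and then Dbp at 0.81 (SE 0.04), Arntl at 0.66 (SE 0.04) and Cry1 at 0.60 (SE 0.06). Nr1d1 (0.43, SE 0.03), Per3 (0.38, SE 0.04) and Ciart (0.35, SE 0.06) differed less. Ciart was higher in the NAc in 11 of 12 mice and the other 7 genes in 12 of 12. Arntl and Dbp, which peak at opposite times of day, thus lay on the same side, both higher in the NAc.

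Clock and Nr1d2 were not called between the regions over the 12 mice. Nr1d2 stood at 114 to 140 CPM in the NAc and at 125 to 148 CPM in the VTA over the 12 mice, a difference of 0.02 with a 95% interval from -0.05 to 0.09 (adjusted p = 0.61, limma). Clock stood at 62.3 CPM in the NAc of wild-type PBS mouse 2 and at 119 to 134 CPM in the other 11 NAc libraries, against 103 to 127 CPM in the VTA. Its difference was 0.08 (adjusted p = 0.336, limma) over 12 mice and 0.16 (adjusted p = 0.000297) without mouse 2, so this 1 library decided the call. Reads of Nr1d1 and Dbp share ground with genes on the opposite strand, Thra and Sphk2, whose exons overlap theirs, and the strand setting of the counting was not stated. Thra, at 356 to 656 CPM, was itself higher in the NAc by 0.51, whereas Sphk2, at 19.0 to 33.4 CPM, was lower there by -0.33. The exons of Arntl are likewise overlapped by an antisense gene, Gm45355.

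**Figure D2:**
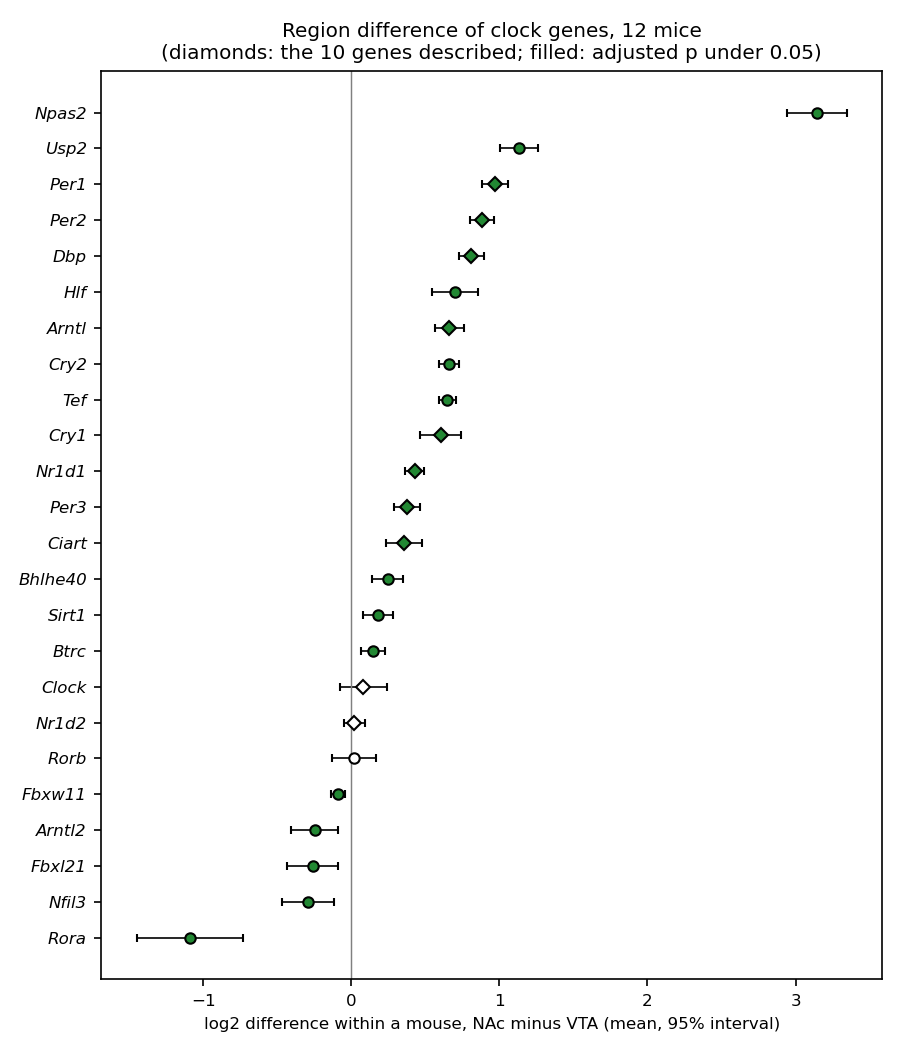
Mean difference between NAc and VTA within the 12 mice (log2, with 95% intervals) for the 10 clock genes (diamonds) and for further clock genes named in the text (circles), filled where the adjusted p was under 0.05. Per1 to Ciart lie to the right of 0 (higher in the NAc), from 0.97 to 0.35, Npas2 lies farthest right at 3.14, and Rora farthest left at -1.09.

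In the NAc of wild-type mice, morphine was accompanied by lower Dbp and Nr1d1, the output and the repressor that peak against Arntl, and by no called change of Arntl. These 2 of the 10 genes were called, both lower, where 0.813% of 15749 genes were called, 0.413% higher and 0.400% lower. The clock genes had a median difference of -0.14, against 0.01 over all genes. Dbp stood at 81.7, 101 and 85.8 CPM in the PBS mice and at 59.5, 46.7 and 50.6 CPM in the morphine mice. All 3 morphine libraries lay below all 3 PBS libraries, with a gap wider than the spread within either group. Its log2 difference was -0.80 (SE 0.11, adjusted p = 0.0347, limma), or 0.574-fold. Nr1d1 stood at 133, 149 and 153 CPM with PBS and at 104, 103 and 104 CPM with morphine, again without overlap and with the morphine libraries close together. It differed by -0.51 (SE 0.08, adjusted p = 0.039, limma). Thra, which shares exon sequence with Nr1d1, differed by -0.09 (adjusted p = 0.677, limma).

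Both calls were lost when any 1 of the mice 1.0, 1.1, 1.2, 1 or 3 was left out, with adjusted p from 0.0604 to 0.179 for Dbp and from 0.0751 to 0.228 for Nr1d1, and held without mouse 2 (Dbp -0.73, adjusted p = 0.0086, and Nr1d1 -0.51, adjusted p = 0.0101). Ciart, a repressor of CLOCK and BMAL1, stood at 15.9, 22.1 and 18.1 CPM with PBS and at 13.7, 12.6 and 14.4 CPM with morphine. The groups did not overlap but the difference of -0.47 did not pass the test (adjusted p = 0.149, limma), though it did with edgeR over all 12 NAc libraries (-0.48, adjusted p = 0.0266). Arntl was at 40.2, 30.4 and 31.5 CPM with PBS and 33.9, 36.3 and 32.3 CPM with morphine, with groups that lay within each other (-0.01, 95% interval -0.30 to 0.28). Per1 (-0.14), Per2 (-0.14), Per3 (-0.02), Cry1 (-0.17) and Nr1d2 (0.01) did not pass, nor did they without mouse 2, where Per2 came to -0.26, Per3 to -0.16, Arntl to -0.11, Nr1d2 to -0.09 and Ciart to -0.37. Clock differed by 0.36 (adjusted p = 0.517), a value that fell to 0.00 without mouse 2.

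In the NAc of Vdr-/- mice 4 of the 10 genes were called with morphine, Dbp, Ciart and Per3 lower and Arntl higher, where 19.1% of 15820 genes were called, 9.94% higher and 9.13% lower. The clock genes had a median of -0.06, against -0.01 over all genes. Dbp stood at 95.1, 76.6 and 93.7 CPM with PBS and at 56.8, 54.2 and 56.7 CPM with morphine. Its morphine libraries were tightly grouped below every PBS library (-0.69, SE 0.08, adjusted p = 0.000311, limma). Ciart stood at 22.2, 21.3 and 25.7 CPM with PBS and at 12.9, 13.4 and 14.0 CPM with morphine, which gave the largest difference among the 10 genes in this comparison, -0.81 (SE 0.09, adjusted p = 0.000279, limma). Both fell in every fit that left out 1 library and under every other setting tried.

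Per3, a Period gene that carries the D-boxes shown above, stood at 102, 106 and 104 CPM with PBS and at 85.8, 81.1 and 83.0 CPM with morphine. Its groups were narrow and apart, at -0.36 (SE 0.05, adjusted p = 0.000591, limma), a call lost with edgeR over all 12 NAc libraries (adjusted p = 0.0517). Arntl stood at 28.5, 28.0 and 26.9 CPM with PBS and at 38.6, 36.2 and 30.8 CPM with morphine, so it moved the other way, with morphine mouse 2.2 nearest to the PBS libraries. Its difference of 0.29 (SE 0.08, adjusted p = 0.029, limma) was no longer called without mouse 2.0, 2.1 or 9 (adjusted p 0.1004 to 0.107), or with edgeR over 12 libraries (0.118) or limma without a trend (0.105). Nr1d1, at 123, 121 and 122 CPM with PBS and 121, 116 and 119 CPM with morphine, differed by -0.08 (95% interval -0.17 to 0.02) and was not called. Per1 (0.15) and Per2 (0.15) were not called either, though Per2 was called without PBS mouse 7 (0.25, adjusted p = 0.0319). Cry1 (-0.14), Nr1d2 (-0.04) and Clock (0.01) did not pass.

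In the VTA the deposited tables of the morphine comparison hold 3 morphine mice and 2 PBS mice per genotype, without wild-type PBS mouse 3 and Vdr-/- PBS mouse 8, whose libraries are in other tables. In wild-type mice Dbp was the 1 clock gene called, where 3.65% of 16187 genes were called (1.77% higher, 1.88% lower), and the median of the clock genes was 0.04 against -0.01 over all genes. Dbp stood at 39.7 and 44.4 CPM in PBS mice 1 and 2 (42.0 in mouse 3) and at 32.9, 30.6 and 31.0 CPM with morphine. The morphine libraries lay below all PBS libraries, at -0.45 (SE 0.08, adjusted p = 0.036, limma). The call was lost without mouse 1.2, 1 or 2, with differences of -0.53 to -0.37. Leaving out PBS mouse 1 or 2 leaves 1 PBS mouse, so the morphine group alone supplies the spread. Sphk2, which overlaps Dbp, differed by -0.09 (adjusted p = 0.667).

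Arntl lay the other way in the same animals. It stood at 20.6 and 18.4 CPM in PBS mice 1 and 2 (18.6 in mouse 3) and at 27.7, 25.2 and 25.6 CPM with morphine, so that every morphine library was above every PBS library. The difference of 0.39 (SE 0.09) did not pass with the deposited 5 libraries (adjusted p = 0.0629, limma) and passed with all 3 PBS mice (0.42, adjusted p = 0.0158) or without mouse 1.1 (0.41, adjusted p = 0.0311). Per1 stood at 74.9 and 68.9 CPM with PBS (70.7 in mouse 3) against 91.2, 87.1 and 84.8 CPM with morphine, also without overlap. Its difference was 0.25 (adjusted p = 0.0828) with 5 libraries, 0.27 (adjusted p = 0.0225) with all 3 PBS mice and 0.25 (adjusted p = 0.04997) without mouse 1.1. Ciart was at 11.2, 11.1 and 11.9 CPM with PBS and at 10.8, 13.8 and 14.6 CPM with morphine, with overlapping groups and no lower level (0.19, 95% interval -0.20 to 0.57). Nr1d1 (0.02), Nr1d2 (-0.02), Per2 (0.05), Per3 (-0.06), Cry1 (0.04) and Clock (0.05) did not pass.

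In the VTA of Vdr-/- mice 4 of the 10 genes were called, Dbp, Ciart and Per3 lower and Nr1d1 higher, where 10% of 16364 genes were called, 4.74% higher and 5.28% lower. The clock genes had a median of -0.02, against -0.00 over all genes. Dbp stood at 54.3 and 63.2 CPM in PBS mice 7 and 9 (54.3 in mouse 8) and at 34.9, 39.9 and 39.0 CPM with morphine, and all morphine libraries lay below all PBS libraries (-0.63, SE 0.08, adjusted p = 0.00968, limma). Ciart stood at 18.2 and 23.5 CPM with PBS (17.7 in mouse 8) and at 10.02, 12.9 and 12.7 CPM with morphine, at -0.81 (SE 0.15, adjusted p = 0.0229, limma). Per3 stood at 85.8 and 89.7 CPM with PBS (70.9 in mouse 8) and at 60.7, 64.0 and 63.0 CPM with morphine. PBS mouse 8 lay between the other PBS mice and the morphine mice for this gene, and the difference without it was -0.49 (SE 0.05, adjusted p = 0.00644, limma). With mouse 8 included all 4 calls held.

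Nr1d1 was the gene with the opposite direction. It stood at 79.1 and 88.4 CPM with PBS (88.1 in mouse 8) and at 106, 107 and 105 CPM with morphine, so it was higher in every morphine library (0.34, SE 0.06, adjusted p = 0.0174, limma). Thra differed by 0.18 in the same comparison (adjusted p = 0.134). Without PBS mouse 7 none of the 4 calls held, with adjusted p of 0.0725 for Per3 and a range over the mice whose omission lost the call of 0.0685 to 0.143 for Nr1d1 (mice 2.2 and 7), 0.0521 to 0.0724 for Dbp (mice 7 and 9) and 0.0693 to 0.107 for Ciart (mice 2.2, 7 and 9). Each of these fits compares 3 or 2 morphine mice with 1 or 2 PBS mice, and where 1 PBS mouse is left it is assumed to vary like the morphine group. Arntl was at 18.6 and 20.4 CPM with PBS (15.5 in mouse 8) and at 23.6, 23.4 and 23.2 CPM with morphine, a difference of 0.26 that did not pass (adjusted p = 0.0654, limma) and passed with edgeR over all 12 VTA libraries (0.35, adjusted p = 0.0347). Per1 (-0.05), Per2 (0.04), Nr1d2 (0.01), Clock (0.09) and Cry1 (-0.22) did not pass.

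**Figure D3:**
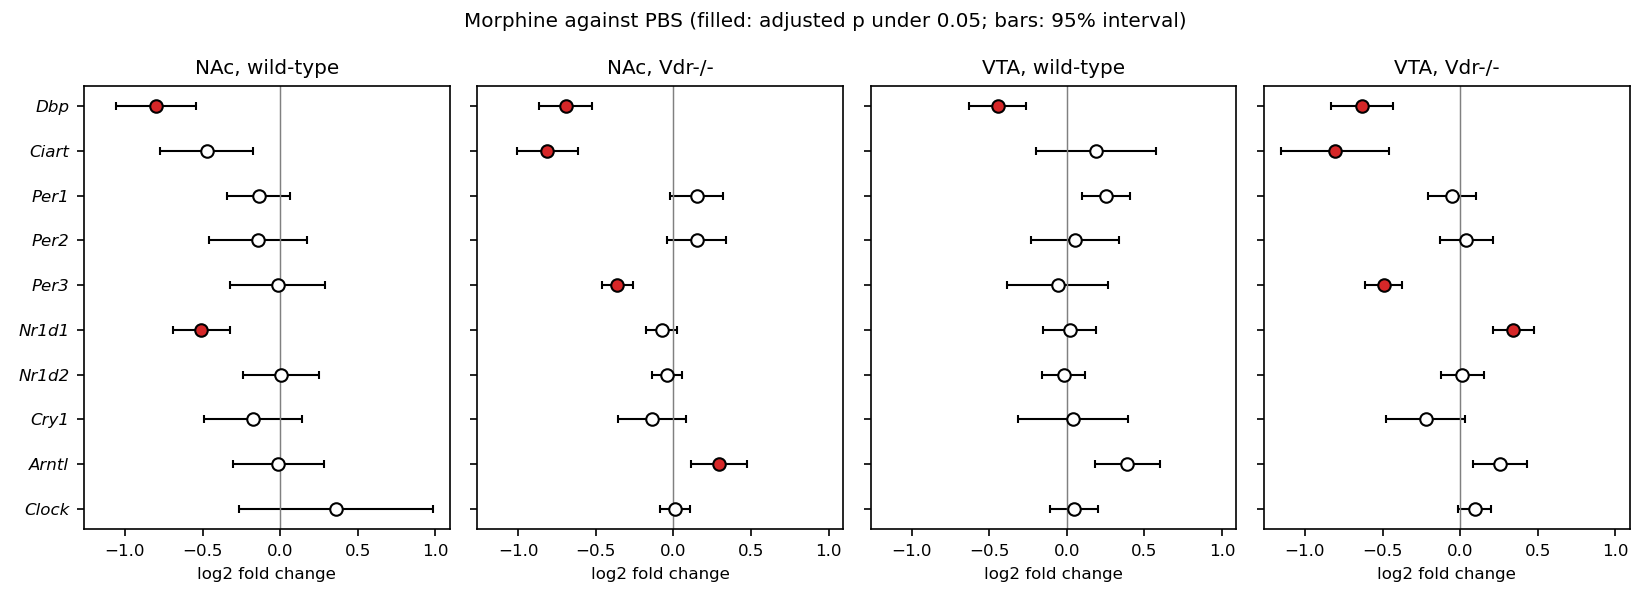
Morphine minus PBS (log2, with 95% intervals) for the 10 clock genes in each region and genotype, with called differences filled. Dbp is lower in all 4 comparisons, from -0.45 to -0.80, Ciart and Per3 are called lower in both regions of Vdr-/- mice, and Nr1d1 is called lower in the wild-type NAc and higher in the Vdr-/- VTA.

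Across the 4 comparisons Dbp was called lower each time, although the wild-type and Vdr-/- comparisons are of different mice and the NAc and VTA comparisons of a genotype are of the same mice. Dbp and Arntl, the phase-opposed pair, can be set against each other in each library as the ratio of their CPM. In the NAc the ratio ran from 2.03 to 3.31 in wild-type PBS mice (median 2.73) and from 1.29 to 1.76 with morphine (1.56), and in Vdr-/- mice from 2.74 to 3.48 with PBS (3.34) and from 1.47 to 1.84 with morphine (1.50). In the VTA it ran from 1.92 to 2.41 in wild-type PBS mice (median 2.25) and from 1.19 to 1.22 with morphine (1.21), and in Vdr-/- mice from 2.91 to 3.49 with PBS (3.09) and from 1.48 to 1.71 with morphine (1.68). In each region and genotype every morphine library had a lower ratio than every PBS library. The ratio was lower through Dbp alone in the wild-type NAc, where Arntl lay at the same level in both groups.

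**Figure D4:**
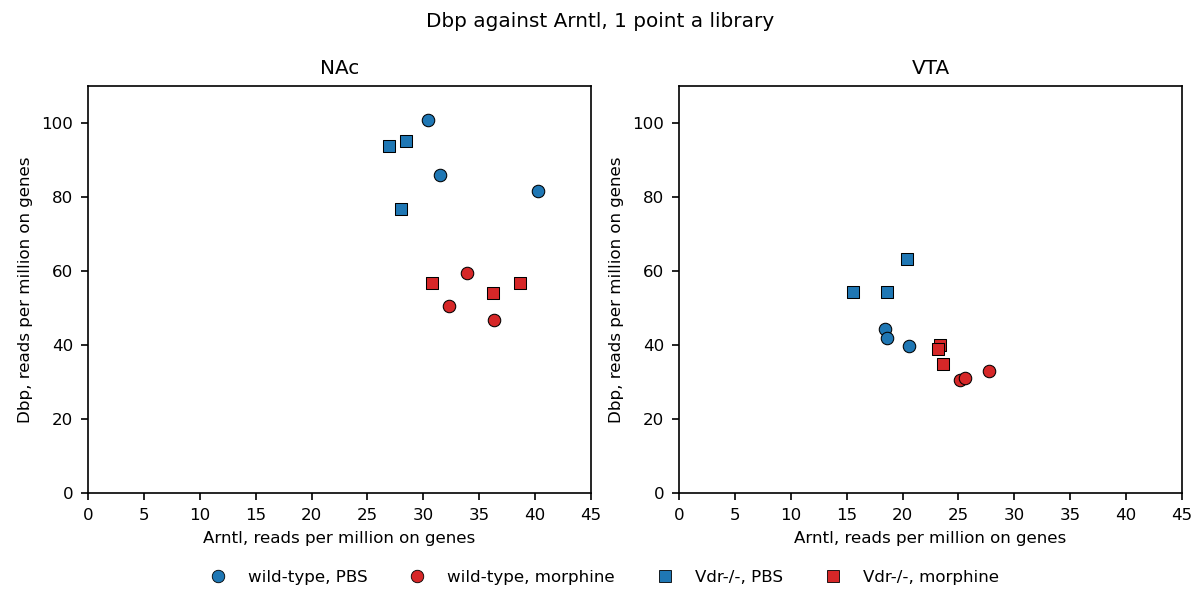
Dbp against Arntl in each of the 24 libraries, both in CPM, with 1 panel per region, colour for the injection and shape for the genotype. Within each genotype and region the morphine libraries lie at lower Dbp than the PBS libraries, and in the VTA every morphine library lies at higher Arntl than every PBS library.

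The difference with morphine was called as unlike between the regions for Nr1d1 and, less firmly, for Ciart. The change within a mouse from VTA to NAc was compared between morphine and PBS mice, over both genotypes and on 1 scale for all 24 libraries. Of the 10 genes, 2 were called, where 12.4% of 16147 genes were called (6.26% higher, 6.16% lower), and the median of the clock genes was -0.10 against 0.00 over all genes. Nr1d1 differed by -0.45 (SE 0.06, adjusted p = 0.00114, limma), made up of a mean morphine difference of -0.30 in the NAc and 0.15 in the VTA. It was called in each of the 12 fits that left out 1 mouse and in each of the 9 fits with another setting. Ciart differed by -0.38 (SE 0.11, adjusted p = 0.0458, limma), from -0.65 in the NAc and -0.27 in the VTA. The VTA mean joins opposite signs. On this scale Ciart was at -0.49 in the NAc and 0.18 in the VTA of wild-type mice. In Vdr-/- mice it was at -0.82 and -0.73, close together, and the region difference was not tested within a genotype. The call for Ciart held in 3 of the 12 fits that left out 1 mouse and was lost without mouse 1.1, 1.2, 2.1, 2.2, 2, 3, 7, 8 or 9 (adjusted p 0.0665 to 0.108). Dbp (-0.25, from -0.76 in the NAc and -0.51 in the VTA) had an adjusted p of 0.0507 and was called without mouse 1.0, 2.0 or 8 (adjusted p 0.0359 to 0.0475). Arntl (-0.27, from 0.13 and 0.41) had an adjusted p of 0.0678 and was called without mouse 2 or 9 (0.047 to 0.0479). Per3 had mean morphine differences of -0.20 in the NAc and -0.21 in the VTA, with a difference of 0.01 (95% interval -0.17 to 0.18).

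Between the genotypes, differences were seen in the VTA of PBS mice. Ciart was the 1 gene of the 10 called, higher in Vdr-/- mice, where 0.390% of 16425 genes were called (0.256% higher, 0.134% lower), and the median of the clock genes was 0.18 against -0.00 over all genes. It stood at 11.2, 11.1 and 11.9 CPM in wild-type mice and at 18.2, 17.7 and 23.5 CPM in Vdr-/- mice, without overlap (0.76, SE 0.11, adjusted p = 0.0472, limma). The call was lost without wild-type mouse 1, 2 or 3 or Vdr-/- mouse 7 or 9 (adjusted p 0.0971 to 0.225). Per1 stood at 74.9, 68.9 and 70.7 CPM in wild-type and at 87.6, 93.8 and 98.4 CPM in Vdr-/- mice, again apart (0.36, SE 0.06, adjusted p = 0.0592). Dbp stood at 39.7, 44.4 and 42.0 CPM against 54.3, 54.3 and 63.2 CPM (0.42, SE 0.07, adjusted p = 0.0792). Neither passed with limma. With all mice both were called by DESeq2 (adjusted p = 0.000658 for Per1 and 0.0011 for Dbp) and by edgeR over the 12 VTA libraries (0.0134 and 0.0249). With limma without Vdr-/- mouse 8 Dbp (0.46, adjusted p = 0.0355), Per1 (0.36, 0.0437) and Per3 (0.36, 0.0473) were called too. Per3 (0.26), Cry1 (0.22), Per2 (0.15), Nr1d2 (0.12), Arntl (-0.11), Clock (-0.08) and Nr1d1 (-0.16) did not pass with all mice. Markers of dopamine neurons also lay apart between these groups, with a sum of 519 to 2204 CPM in Vdr-/- and 2330 to 2889 CPM in wild-type mice. Their part in the clock gene values was not tested.

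Genes induced by glucocorticoids were also higher in the VTA of Vdr-/- PBS mice. Of a list of 16 such genes, 7 were called higher, where 0.256% of all genes were called higher. All 16 had positive values (median 0.74), the called ones including Cdkn1a (1.62) and Plin4 (1.80). The summed level of the list was 1317 to 1469 CPM in Vdr-/- PBS mice and 728 to 944 CPM in wild-type PBS mice. In the NAc of PBS mice 0 of the 16 were called by limma, where only 0.0690% of all genes were called. All 16 had positive values there (median 0.46), with sums of 939 to 1005 CPM in Vdr-/- and 653 to 805 CPM in wild-type mice. Per1, a known glucocorticoid target, was at -0.14 in the same comparison. The part of these genes in the clock gene values was not tested.

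In the NAc of PBS mice none of the 10 genes was called between the genotypes by limma, where 0.0690% of 15933 genes were called, and edgeR and DESeq2 called 0. At an unadjusted p under 0.05 there were 3 of the 10 and 8.94% of all genes. Per3 stood at 85.6, 66.6 and 86.3 CPM in wild-type and at 102, 106 and 104 CPM in Vdr-/- mice, with all Vdr-/- libraries above (0.42, adjusted p = 0.461, and 0.27, adjusted p = 0.104, without mouse 2). Nr1d1 was at -0.22, Ciart at 0.33 and Arntl at -0.26, and without mouse 2 the last pair came to 0.44 and -0.36. Dbp was at 0.01 (95% interval -0.25 to 0.26). Clock was at 0.33 with mouse 2 and at -0.03 without it.

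With morphine none of the 10 genes was called between the genotypes in either region by limma, and edgeR and DESeq2 also called 0. In the NAc 0.192% of 15638 genes were called. At an unadjusted p under 0.05 there were 3 of the 10 and 7.73% of all genes. Nr1d1 had the lowest p there, at 104, 103 and 104 CPM in wild-type and 121, 116 and 119 CPM in Vdr-/- mice (0.20, SE 0.05, adjusted p = 0.219). In the VTA 0.0624% of 16029 genes were called, and 3 of the 10 and 8.77% of all genes were at an unadjusted p under 0.05. Dbp was at 32.9, 30.6 and 31.0 CPM in wild-type and 34.9, 39.9 and 39.0 CPM in Vdr-/- mice (0.26, SE 0.07, adjusted p = 0.436). Ciart, which differed between PBS mice, had an interval from -0.51 to 0.23 around -0.14 with morphine.

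**Figure D5:**
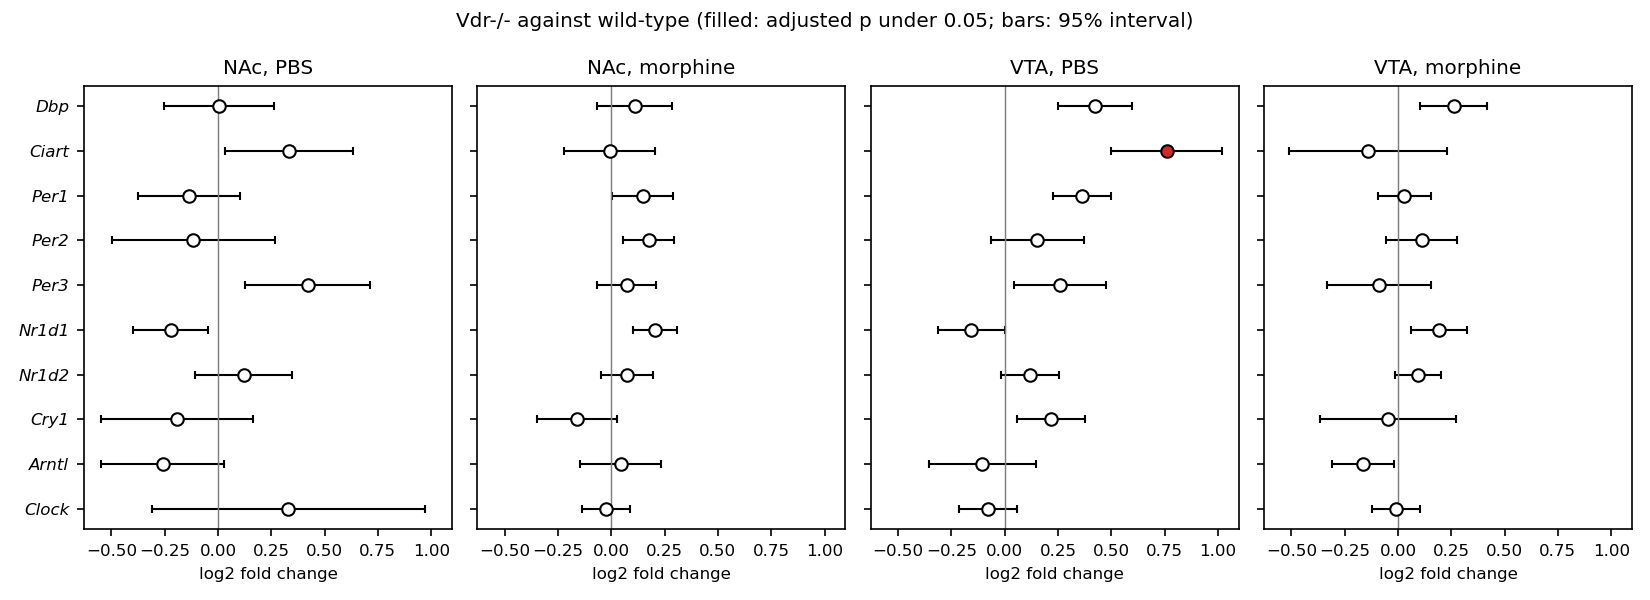
Vdr-/- minus wild-type (log2, with 95% intervals) for the 10 clock genes in each region and injection, with called differences filled. Ciart in the VTA of PBS mice, at 0.76, is the 1 called difference.

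Whether the difference with morphine depended on genotype was tested as an interaction, and no clock gene passed. In the NAc 0 of 15788 genes (0%) were called by limma, 916 were at an unadjusted p under 0.05, and 3 of the 10 clock genes were among them, with 0 called by edgeR. Nr1d1 had an interaction of 0.43 (95% interval 0.25 to 0.61, adjusted p = 0.814), since it was lower with morphine in wild-type and close to level in Vdr-/- mice. Per3 was at -0.35 and Ciart at -0.34, and Dbp at 0.11 (95% interval -0.22 to 0.43). Without wild-type PBS mouse 2 Nr1d1 stayed at 0.43 (adjusted p = 0.249), Per3 came to -0.20, Ciart to -0.44, Dbp to 0.04, Arntl to 0.40, Per2 to 0.41 and Clock to 0.00, and none was called. In the VTA 0.0553% of 16288 genes were called and no clock gene was, with 4 of 10 and 12.2% of all genes at an unadjusted p under 0.05 and 0 of the 10 called by edgeR. Ciart had the largest value, -0.99 (95% interval -1.53 to -0.46, adjusted p = 0.161), and Per3 (-0.43), Nr1d1 (0.32) and Per1 (-0.31) followed. The limma calls of Ciart and Per3, made in Vdr-/- and not in wild-type mice, are therefore not shown to differ between the genotypes. The PBS libraries of a genotype serve both the morphine and the genotype comparison: high Ciart in the VTA of Vdr-/- PBS mice enters its higher level against wild-type and its lower level with morphine, and these are not independent.

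A further 22 clock genes, all tested, give the wider loop. In the NAc of Vdr-/- mice 2 were higher with morphine and 7 lower, where 9.94% of all 15820 genes were higher and 9.13% lower. Nfil3, which represses D-box genes and opposes DBP, stood at 3.23 to 3.55 CPM with PBS and 6.65 to 8.28 CPM with morphine (1.06, SE 0.14, adjusted p = 0.000632). The PAR bZIP factors related to Dbp fell, Tef by 0.39 on the log2 scale (SE 0.05) and Hlf by 0.42 (SE 0.06), with Usp2 (-0.38), a clock-driven deubiquitinase, and Cry2 (-0.26). Npas2 (-0.24), Fbxl21 (-0.44) and Rora (-0.16) were called lower and Sirt1 (0.41) higher, but the call of Npas2 was lost without mouse 2.1 or 9 (adjusted p 0.0815 to 0.0844), that of Fbxl21 without mouse 2.0, 2.1, 7 or 9 (0.0536 to 0.118) and that of Rora without any 1 of the 6 mice (0.0767 to 0.129). In wild-type NAc 0 of the 22 were called by limma, where 0.813% of all genes were called. At an unadjusted p under 0.05 there were 5 of the 22 and 16.6% of all genes. Hlf was at -0.43 (adjusted p = 0.0804, limma), Tef at -0.30 (0.151) and Nfil3 at 0.47 (0.277).

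In the VTA of wild-type mice Rorb, an activator at RREs, was called higher with morphine (0.53, adjusted p = 0.0394, limma). It was the 1 gene of the 22 called, where 3.65% of all genes were called. Without mouse 1.2, 1 or 2, where the call was lost, it lay between 0.45 and 0.61. Without mouse 1 or 2 only 1 PBS mouse is left. In Vdr-/- VTA 0 of the 22 were called by limma, where 10% of all genes were called. At an unadjusted p under 0.05 there were 7 of the 22 and 29.8% of all genes. Nfil3 was at 0.66 (adjusted p = 0.0858) in wild-type and 0.59 (0.0527) in Vdr-/- VTA, so its values were positive in all 4 comparisons and passed in 1. Between the genotypes Tef was called higher in the VTA of Vdr-/- PBS mice (0.30, adjusted p = 0.0381), a call lost without wild-type mouse 1, 2 or 3 or Vdr-/- mouse 7 or 9 (0.136 to 0.225), and none of the 22 was called in the other genotype comparisons or in the interactions.

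The same 22 genes were also compared between the regions. In the NAc 9 were higher and 6 lower than in the VTA. Of all 16147 genes, 35.1% were higher and 37.8% lower. Npas2, the partner of BMAL1 in the forebrain, was at 82.5 to 118 CPM in the NAc and 7.75 to 18.5 CPM in the VTA, a difference of 3.14 (SE 0.09, adjusted p = 3.24e-11), or 8.83-fold. Usp2 (1.13), Hlf (0.70), Cry2 (0.66) and Tef (0.65) were among those higher in the NAc, with Bhlhe40 (0.25), Sirt1 (0.18) and Btrc (0.15). Rora (-1.09), Nfil3 (-0.29), Fbxl21 (-0.26), Arntl2 (-0.25) and Fbxw11 (-0.09) were among those lower. The difference with morphine was itself called between the regions for 4 of the 22, where 12.4% of all genes were called. These were Npas2 (-0.77), Hlf (-0.71), Tef (-0.33) and Cry2 (-0.21). The call was lost in most of the fits that left out 1 mouse for Cry2 and without mouse 7 for Npas2 (adjusted p = 0.053, limma).

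Over the 24 libraries, with each group's mean removed, the genes whose level went most closely with Dbp among 12440 genes were Tef (Pearson r = 0.839), Tbc1d20 (0.818), Dgat2 (0.784), Mrps17 (0.773) and Il34 (0.763). Tef stayed at the head of this order without the NAc library of mouse 2 (0.819 over 23 libraries). Tbc1d20 and Dgat2 also stayed among the first 5, whereas Mrps17 and Il34 gave way to Hexdc and Prkab2. Ciart was 172nd, at 0.561 (256th without that library), and Arntl had a value of -0.22 (-0.07 without it). The genes most like Arntl were Aqr (0.874), Arsk (0.872), Xpo1 (0.864), Ccdc47 (0.832) and 4930453N24Rik (0.831), and without that library Arsk (0.902), Nat8f1 (0.865), Aqr (0.852), Xpo1 (0.835) and Sesn3 (0.827). Both regions of a mouse share the animal, so the 24 points are not independent, and no test was made.

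Markers of the tissue moved with the injection as well, and those of dopamine neurons lay apart between the genotypes in PBS VTA. In the NAc the summed level of 10 medium spiny neuron genes was 4477 to 5126 CPM in wild-type PBS and 2923 to 3764 CPM in wild-type morphine mice, with 3 of 10 called lower, and 3902 to 4524 against 2577 to 2956 CPM in Vdr-/- mice, with 10 of 10 called lower. None of the 10 was at 0 in the NAc. In the VTA 9 dopamine neuron genes summed to 2330 to 2889 CPM in wild-type PBS and 206 to 559 CPM in wild-type morphine mice, with 7 of 9 called lower, and to 519 to 2204 against 598 to 1169 CPM in Vdr-/- mice, with 1 of 9 called higher. Their PBS sums did not overlap between the genotypes. The median of Vdr-/- minus wild-type was -1.08, with no positive value and 0 of 9 called, where 0.390% of all genes were called. The VTA sums take all 3 PBS mice of a genotype, whereas the VTA calls with morphine rest on the 2 in the deposited tables. A list of 6 hypothalamic genes summed to 7.43 to 99.1 CPM in wild-type PBS and 170.3 to 957 CPM in wild-type morphine VTA, and to 5.80 to 308 against 67.4 to 203 CPM in Vdr-/- VTA, which is a wide spread between punches of 1 region. Of 8 oligodendrocyte genes, 8 were called lower with morphine in Vdr-/- VTA (median -0.76), 0 in wild-type VTA, where the median was as low (-0.79), 5 in Vdr-/- NAc (-0.27) and 0 in wild-type NAc (-0.27). Of 7 microglial genes 6 were called lower in wild-type VTA, 2 in Vdr-/- VTA, 1 in wild-type NAc and 4 in Vdr-/- NAc. Astrocyte genes went both ways. Of 7, 2 were called higher in wild-type NAc, and 5 higher and 1 lower in Vdr-/- NAc. In the VTA 2 were called lower in wild-type and 1 in Vdr-/- mice. Over all genes, 0.400% were called lower in wild-type NAc and 9.13% in Vdr-/- NAc, and 1.88% and 5.28% in the VTA. The shares called higher were 0.413% and 9.94% in the NAc, and 1.77% and 4.74% in the VTA. The part of tissue makeup in the clock gene differences was not tested.

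Genes that respond to neuronal activity and to temperature also moved. Of 12 activity genes, 8 were called higher with morphine in the Vdr-/- NAc and 0 in the wild-type NAc (medians 0.85 and 0.00). Over all genes 9.94% and 0.413% were called higher there. The sum of the list in PBS NAc was 385 to 564 CPM in Vdr-/- and 562 to 817 CPM in wild-type mice. With morphine it was 685 to 914 and 639 to 732 CPM. Of the 11 tested in the VTA 4 were called higher in Vdr-/- and 1 in wild-type mice, with medians of 0.47 and 0.53. Over all genes 4.74% and 1.77% were called higher there. Of 8 genes that follow body temperature, 5 were called higher and 2 lower in the Vdr-/- NAc and 4 higher and 2 lower in the Vdr-/- VTA, with Cirbp, a cold-induced gene, at -0.83 and -0.93 and the heat-shock gene Hspa1a at 1.41 and 1.10, and 0 of 8 were called in wild-type mice. Of the 16 glucocorticoid genes, 4 were called higher and 3 lower with morphine in the Vdr-/- NAc, and 6 lower in the Vdr-/- VTA (medians 0.04 and -0.22), and in wild-type mice 1 was called higher in each region (medians 0.55 in the NAc and 0.35 in the VTA). Over all genes, 19.1% were called in the Vdr-/- NAc and 10% in the Vdr-/- VTA, against 0.813% and 3.65% in wild-type mice. No gene of these lists was called in the interaction of the NAc or of the VTA, where 0% and 0.0553% of all genes were. The part of these lists in the values of the clock genes was not tested.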

How the data were processed

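Total RNA of RIN 8 or more from 24 punches was made into libraries with a directional kit and read as 101-base pairs on a HiSeq instrument. Per the labels and methods, the authors used CASAVA 1.8, Trimmomatic 0.36 and STAR 2.4.2a with GENCODE annotation, counted reads per gene and divided the counts by DESeq2 size factors. The deposited values are a signal in that sense, normalized counts with 1 table per comparison, and replicates were not pooled. Dividing each column by its smallest step returned whole reads for 100% of values within 0.01 reads, and libraries in 2 tables returned the same reads, from which CPM and RPKM were computed here. The strand setting of the counting was not given in the sources used here. Of the gene identifiers, 30204 of 30270 matched GENCODE M21.

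The main test was limma 3.58.1 (R 4.3.3, trend) on log2(value + 1) of genes whose mean in the table reached 10, two-sided, with Benjamini-Hochberg adjustment over all genes and a threshold of 0.05, so fold changes of low genes are understated. The 12 comparisons were genotype within region and injection, morphine within region and genotype, their interaction per region, the region difference within mice, and morphine by region, the last of these on recovered reads brought to 1 scale for 24 libraries. The VTA morphine tables hold 5 libraries each, 2 of them PBS. Alternatives were edgeR 4.0.16 and DESeq2 1.42.0 on recovered reads, other scalings, filters and pseudocounts, and leaving out each library. Scripts were tested on simulated data. Promoter motifs and figures used Python 3.11.15. Replicates are separate mice by their labels. NAc and VTA samples with 1 mouse number were taken as 1 animal by that label, and the tests within mice rest on this. The deviations of the 2 regions of a mouse from their group means correlated at -0.04 to 0.20, which does not decide it.

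The clock genes, the other gene lists and the rule for named genes were chosen with earlier results of these data known. The rule names every member, those of the other 22 clock genes that were called (some are counted but not reported here by name), and the 5 genes most like Dbp and Arntl among genes with a mean of at least 50. In the other lists a few genes were named after their values were seen.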

Additional observations from a re-analysis of the deposited data

Results flagged for a closer look

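The difference between morphine and PBS mice was compared between the regions by the test within mice of both genotypes. It was called for 2 of the 10 and for 4 of the other 22 clock genes. Of all 16147 genes 12.4% were called, 6.26% higher and 6.16% lower. The difference was lower in the NAc than in the VTA by -0.45 (log2) for Nr1d1, -0.38 for Ciart, -0.77 for Npas2, -0.71 for Hlf, -0.33 for Tef and -0.21 for Cry2. For Ciart the NAc and VTA values lay apart in wild-type mice (-0.49 and 0.18) and close together in Vdr-/- mice (-0.82 and -0.73). The call was lost without mouse 7 for Npas2 (adjusted p = 0.053) and in 9 of 12 fits that left out 1 mouse for Cry2 (adjusted p 0.0503 to 0.094, without mice 1.0, 1.1, 1.2, 2.0, 2.1, 2.2, 1, 2 or 7) and for Ciart. Under other settings the call was lost without the filter, with TMM scaling, with limma without a trend and with edgeR with mouse as the block for both Cry2 (adjusted p 0.0561 to 0.0769) and Ciart (0.0503 to 0.0684), with quantile normalization for Cry2 (0.0695), and without the block for Ciart (0.0705).

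Nr1d1 changed sides in 3 pairs of comparisons in which the samples of the groups did not overlap in the normalized counts, although in CPM the PBS libraries of the genotypes overlapped in the VTA (87.2 to 102 in wild-type and 79.1 to 88.4 in Vdr-/- mice). With morphine in Vdr-/- mice it was at -0.077 in the NAc, which was not called, and at 0.34 in the VTA, and that difference was not tested within this genotype alone. Between the genotypes it was at -0.22 in PBS and 0.20 in morphine mice in the NAc, and at -0.16 in PBS and 0.19 in morphine mice in the VTA. None of these 4 genotype values was called, and the interaction tests of the pairs, 0.43 in the NAc (adjusted p = 0.814, limma) and 0.32 in the VTA (adjusted p = 0.208, limma), did not pass.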

How the results depend on the processing

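Of the values of called clock genes under other settings, 198 kept their direction and call and 17 lost the call, and with 1 library left out 149 kept it and 38 lost it. No called value changed sign. Values that were not called in the main test gained a call 13 times under other settings and 12 times with 1 library left out. The 1 value called in the opposite direction was the region difference of Nr1d2, at -0.071 (adjusted p = 0.0392) with quantile normalization. For the other 22 clock genes, called values lost the call 17 times under other settings and 30 times with 1 library left out.

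The number of the 10 clock genes called moved as follows. In wild-type NAc with morphine it went from 2 to 0 with limma without a trend and lay between 0 and 2 with 1 library left out. In Vdr-/- NAc it went from 4 to 2 with edgeR over all 12 libraries of the region, where Per3 (adjusted p = 0.0517) and Arntl (0.118) were lost. Between the genotypes in PBS VTA it went from 1 to 3 with DESeq2 and with edgeR over 12 libraries, to 2 without the filter, to 0 with TMM scaling (Ciart adjusted p = 0.0507) and without a trend, and lay between 0 and 4 with 1 library left out. In wild-type VTA with morphine it went from 1 to 3 with edgeR over 12 libraries and with all 3 PBS mice, to 0 without a trend, and lay between 0 and 3 with 1 library left out. In Vdr-/- VTA it went from 4 to 0 without a trend and lay between 0 and 4 with 1 library left out. For morphine by region it went from 2 to 1 without the replicate block, without the filter, with TMM scaling, without a trend and with edgeR with mouse as the block, and lay between 1 and 3 with 1 mouse left out. The cause was not tested.

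With the digit after the point as a replicate block, 0 clock genes were called between the genotypes in morphine mice in either region, as without it. Correlations of deviations between same-numbered mice were not positive, at -0.15 to -0.00 in the NAc and -0.31 to -0.23 in the VTA. Between mice with different digits they lay at -0.05 to 0.10 in the NAc and -0.02 to 0.25 in the VTA. The same-numbered pairs of the VTA thus lay below all others there, and the cause was not tested. Counts over all genes depended strongly on the setting: under other settings they lay between 27 and 1082 in wild-type NAc with morphine, 1207 and 3078 in Vdr-/- NAc, 56 and 3233 in wild-type VTA, 0 and 1822 in Vdr-/- VTA, 17 and 289 between the genotypes in PBS VTA, 8 and 63 in PBS NAc, 10 and 51 in morphine NAc and 4 and 95 in morphine VTA, 9859 and 14348 for the region and 1459 and 2111 for morphine by region. With 1 library left out they lay between 0 and 627 in wild-type NAc, 1566 and 3133 in Vdr-/- NAc, 0 and 2817 in wild-type VTA and 0 and 2272 in Vdr-/- VTA, so the shares of all genes called that stand beside the clock genes' counts moved with single libraries too. The ranges for morphine in the VTA include fits with 1 PBS mouse left. With 3 mice per group, or 2, the number of mice limits the precision of every value, and the part of depth was not tested.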
